A study of Homo sapiens with 3 samples.

Results

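Cadherins and catenins were followed in Rh-30 cells, an established alveolar rhabdomyosarcoma (ARMS) line positive for the PAX3-FOXO1 fusion. All probe sets paired with 9 gene symbols in the platform annotation were taken, namely CDH2, CDH4, CDH6, CDH11, CDH13, CDH15, CTNNA1, CTNNA2 and CTNND1. This gave 24 of the 54675 probe sets. Of these, 20 were named with 1 gene and covered 6 genes, and 4 were paired with both CTNND1 and the read-through gene TMX2-CTNND1, so their signal cannot be assigned to CTNND1 alone. CDH4 and CDH13 were paired with no probe set in the annotation used and were not analysed here.

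The cells were transfected with siPF, an siRNA directed at the PAX3-FOXO1 fusion site, with siB7-H3, an siRNA against B7-H3 (CD276), or with the control siRNA siCont, each at 5 nM, and RNA was taken after 24 h. Each condition had 1 Affymetrix U133 Plus 2.0 expression array, with 1 siRNA per target and 1 cell line. No replicate error could be computed and no test between conditions was possible, so every difference given here lies between 2 arrays. A probe set is a group of short probes for one transcript region, and its intensity can be compared between arrays but not with that of another probe set.

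Cadherins are surface proteins that bind cadherins on neighbouring cells in a calcium-dependent way. Inside the cell the classical cadherins bind p120-catenin (CTNND1) and beta-catenin, and beta-catenin holds an alpha-catenin (CTNNA1, CTNNA2), which connects the complex to actin filaments. In skeletal muscle, N-cadherin (CDH2) and M-cadherin (CDH15) are carried by myoblasts, the cells that fuse into muscle fibres, and M-cadherin is widely used as a marker of muscle precursor cells.

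The probe sets were read on arrays that had been scaled alike, with a mean intensity of 500.1 on each array after leaving out the lowest and highest 2% of probe sets. Differences were log2 values, and the 2-fold threshold was a log2 difference of 1 in either direction. A level rule required the higher of the 2 arrays compared to reach the 60th percentile of its probe sets, an intensity of 137 in siPF, 134 in siB7-H3 and 132 in siCont. Both targets were lower on their own array. The brightest FOXO1 probe set, whose source (fusion or normal FOXO1 RNA) was not determined, gave 249 in siPF, 650.0 in siB7-H3 and 678 in siCont, and that of CD276 gave 1381, 362 and 1486 in the same order. Of 15 myogenic markers, 10 reached the level rule on at least 1 array, MYOD1 and DES among them, and the summed intensity of all 15 was 69245 in siPF, 69412 in siB7-H3 and 57745 in siCont. ACTC1, a muscle actin, gave 38707 in siPF, 32753 in siB7-H3 and 26987 in siCont, the largest part of each sum. The markers over the level rule did not move together. In siPF 5 lay above siCont and 3 below, namely MYOD1 (log2 difference -0.40), MET (-0.77) and MYF5 (-0.96), and MYOG alone was past 2-fold, at 2.48. In siB7-H3 9 lay above and 1 below, and MYOG was again the only one past 2-fold, at 1.07. The level was reached by 1 of 8 epithelial, 1 of 7 endothelial, 2 of 7 neuronal, 3 of 7 fibroblast and 1 of 5 leukocyte markers, namely CLDN4, PECAM1, SYT1, MAP2, COL3A1, COL1A1, THY1 and CD79A. The summed fibroblast markers were 8523 in siPF, 6679 in siB7-H3 and 6843 in siCont. COL3A1 gave 6032, 4582 and 4589 in the same order, the largest part of each sum. The part of the fibroblast markers in the results was not tested.

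CDH6 was lower in siPF at every one of its 6 probe sets and was close to siCont in siB7-H3. The ratios of the deposited intensities were 3.22-fold to 4.30-fold, but all 6 siPF values were low, so these sizes are not exact. CDH6 encodes K-cadherin, a type II classical cadherin known from the developing kidney and nervous system. Its brightest probe set, 210601_at, had an intensity of 82.5 in siPF, 321 in siB7-H3 and 266 in siCont. Probe set 214803_at gave 84.04 in siPF, 279 in siB7-H3 and 283 in siCont, probe set 205532_s_at 72.7, 282 and 313, and probe set 210602_s_at 74.2, 259 and 305. These 4 probe sets lay over the level rule in siB7-H3 and siCont and under it in siPF. The remaining 2, 205533_s_at and 232631_at, were under the rule on all arrays. The first gave 31.8 in siPF, 84.6 in siB7-H3 and 113 in siCont, and the second 29.6, 73.9 and 107. The siPF value was thus the lowest of the 3 at each of the 6. For 39 measured genes known from single other tissues, such as those of albumin and insulin, the 95th percentile of the highest intensity over the arrays was 104. All 6 CDH6 values in siPF lay under it, and all 6 in siCont over it, the lowest at 107. In siB7-H3 the 2 dim probe sets, at 84.6 and 73.9, lay under it as well and the other 4 over it. Since intensities of different probe sets cannot be compared, 104 is only a rough guide.

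The log2 differences of the 6 CDH6 probe sets against siCont lay between -2.11 and -1.69 in siPF, with a mean of -1.88 and an SD over probe sets of 0.16. In siB7-H3 they lay between -0.53 and 0.27, with a mean of -0.18. Probe sets of one gene share the RNA and the array, and 210601_at and 210602_s_at were designed on the same sequence record, so they are not replicates. Over the 5372 genes with at least 2 probe sets over the level rule in siPF against siCont, the median SD over those probe sets was 0.19. The SD of 0.16 for CDH6 also takes in its 2 probe sets under the rule, so the 2 values are not measured alike. Of the 523 genes with at least 6 probe sets and at least 1 of them over the level rule, CDH6 was the only gene with every probe set at least 2-fold lower in siPF. Over all probe sets but the controls 11.5% were at least 2-fold lower in siPF, and 1.31% of those over the level rule, where 4 of the 6 stood, each by its siCont value alone. The count over 523 genes was chosen after the CDH6 values had been seen.

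When all genes were split by mean level into 10 bands of like size, the band of CDH6 held 1977 genes, whose siPF differences had an SD of 0.45, and 1.92% of them were at least 2-fold lower. Set directly against siB7-H3, a comparison that does not use the siCont array, CDH6 was again lower in siPF at all 6 probe sets. The log2 differences were -1.96 to -1.32, past 2-fold at each. The background was 11.1% of probe sets, or 0.952% over the level rule, which 4 of the 6 passed by siB7-H3 alone. The siPF array is common to both comparisons. With 1 array per condition, a low value on that array and a lower CDH6 level after siPF cannot be told apart. When intensities under the 60th percentile were set to it, all 6 siPF values took that level. The brightest probe set then had a log2 difference of -0.96 against siCont, which is the most its siCont level allows, and the next 3 gave -1.05, -1.19 and -1.16. Against siB7-H3 the same 4 gave -1.23, -1.03, -1.04 and -0.92. The 2 dim probe sets then gave 0.05 against siCont and 0.03 against siB7-H3, so 3 of the 6 were past 2-fold in each comparison. With siPF at the floor, the values of the 4 brighter probe sets were fixed by their siCont or siB7-H3 level alone. The count therefore reflects those levels and does not measure how far siPF lay below them.

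**Figure D1:**
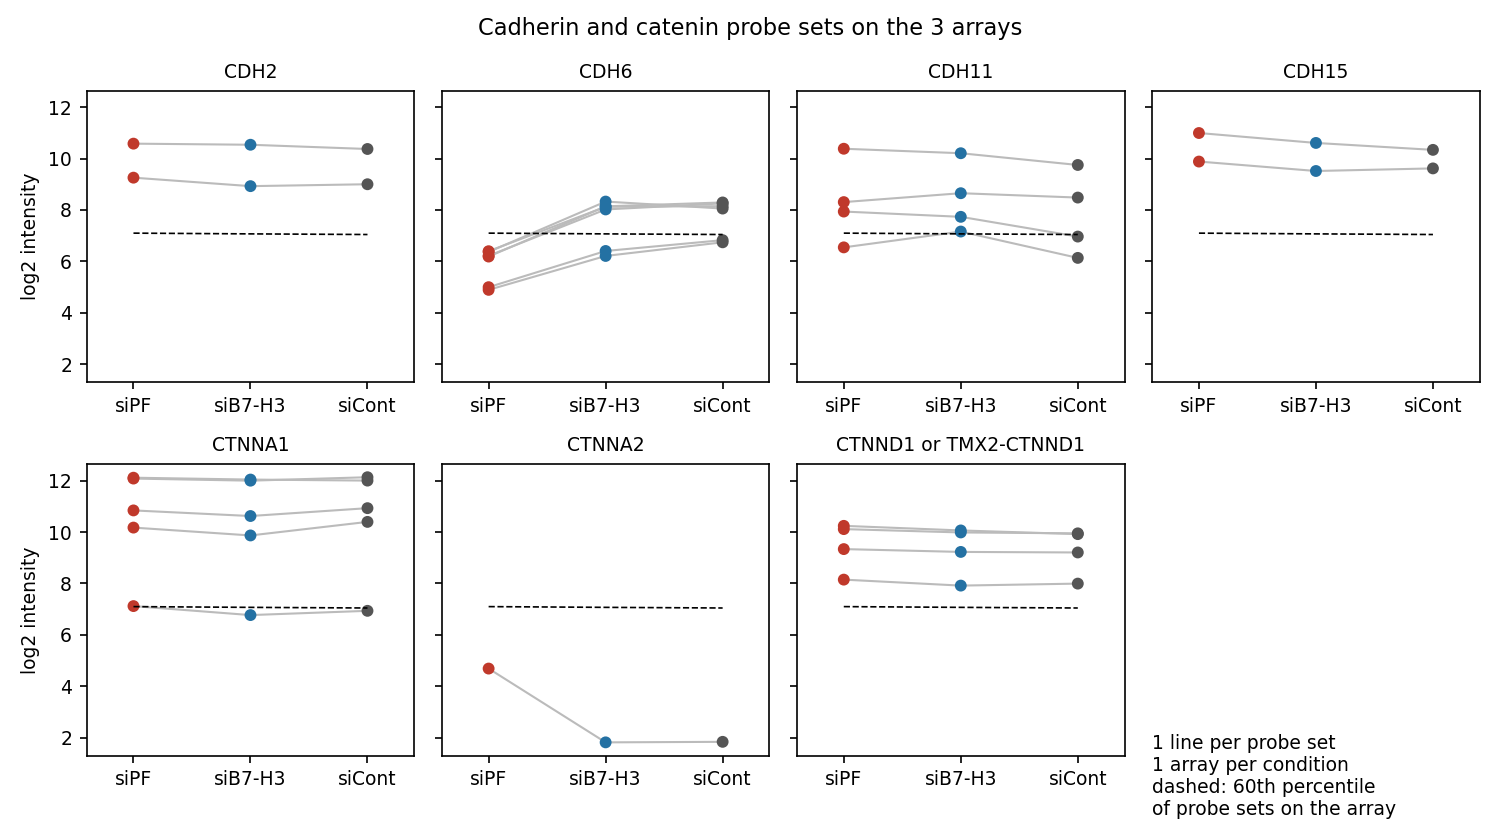
Log2 intensity (vertical axis) of every probe set of the cadherins and catenins on the siPF, siB7-H3 and siCont arrays (horizontal axis), 1 panel per gene, 1 line per probe set and 1 point per array, with the 60th percentile of each array dashed. All 6 CDH6 lines are lowest in siPF, whereas the lines of CDH2, CTNNA1 and CTNND1 are nearly level and the single CTNNA2 line lies far under the dashed line.

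The muscle cadherin CDH15 was higher in siPF by less than 2-fold. M-cadherin, its product, links muscle precursor cells to each other. Probe set 206327_s_at had an intensity of 2038 in siPF, 1560 in siB7-H3 and 1294 in siCont, and probe set 206328_at had 944, 732 and 785. The siPF array was the highest at both, and siB7-H3 lay above siCont at the first and below it at the second. The log2 differences against siCont were 0.66 and 0.27 in siPF, and 0.27 and -0.10 in siB7-H3. Against siB7-H3 directly, siPF was higher by 0.39 and 0.37, so the 2 probe sets were closer to each other without the siCont array. In the band of genes at the level of CDH15 the SD of the differences was 0.31 in siPF and 0.28 in siB7-H3.

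CDH2, the gene of N-cadherin, differed little between the arrays. N-cadherin is the cadherin of neural and mesenchymal cells. Probe set 203440_at gave 1530.05 in siPF, 1485 in siB7-H3 and 1325 in siCont, and probe set 203441_s_at gave 611, 486 and 512. The siPF array was the highest at both, with log2 differences against siCont of 0.21 and 0.26, inside the SD of 0.34 over the genes of this level band. In siB7-H3 the differences were 0.16 and -0.07, on either side of 0.

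CDH11 was higher on both knockdown arrays at most of its probe sets, but the size depended on the probe set. Its product, cadherin-11 or OB-cadherin, is a type II cadherin of mesenchymal cells and osteoblasts. Probe set 207173_x_at had 1334 in siPF, 1182 in siB7-H3 and 861 in siCont, and probe set 236179_at had 245, 212 and 125. The first of these stood for CDH11 in the counts by gene and belongs to the class marked as able to bind several transcripts. Probe set 239286_at had 93.2 in siPF, 143 in siB7-H3 and 70.2 in siCont, whereas 207172_s_at had 316, 402 and 357. In 3 of the 4 probe sets both knockdown arrays lay above siCont, and at 207172_s_at siPF lay below it. The log2 differences lay between -0.18 and 0.97 in siPF and between 0.17 and 1.03 in siB7-H3, and the SD over probe sets was 0.48 and 0.37. The one value past 2-fold, 1.03 at 239286_at in siB7-H3 (background 1.03% of probe sets over the level rule), rests on a probe set that was just under the 50th percentile of probe sets in siCont. The siCont array is common to both comparisons. With 1 array per condition, a low siCont value and a higher level in both knockdowns cannot be told apart. Set directly against siB7-H3, siPF was higher at 2 CDH11 probe sets and lower at the other 2.

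The catenins that reached the level rule stayed within 2-fold on all arrays. CTNNA1, the alpha-catenin of most tissues, was measured by 5 probe sets. Its brightest probe set, 210844_x_at, gave 4331 in siPF, 4091 in siB7-H3 and 4489 in siCont, and 200765_x_at gave 4432, 4215 and 4099. The next, 200764_s_at, gave 1834 in siPF, 1576 in siB7-H3 and 1948 in siCont, and 1558214_s_at gave 1154, 933 and 1345. Probe set 215883_at lay near the level rule, at 139, 109 and 122. Over the 5 probe sets the log2 difference was between -0.22 and 0.18 in siPF and between -0.53 and 0.04 in siB7-H3, where 4 of 5 were lower. In siPF against siB7-H3 all 5 were higher, by 0.07 to 0.35. The 2 brightest belong to the class marked as able to bind several transcripts, and the pseudogene CTNNA1P1 had its own probe set at 6.03 in siPF, 8.23 in siB7-H3 and 21.2 in siCont.

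The 4 probe sets paired with CTNND1 or TMX2-CTNND1 were slightly higher in siPF. CTNND1 encodes p120-catenin, which binds the inner part of cadherins and keeps them at the surface. Probe set 208862_s_at gave 1209 in siPF, 1068 in siB7-H3 and 967 in siCont, and 211240_x_at gave 1108, 1012 and 988. Probe set 208407_s_at gave 646, 598 and 589.7, and 1557944_s_at gave 283, 241 and 255. The log2 difference was 0.13 to 0.32 in siPF and -0.08 to 0.14 in siB7-H3, beside an SD of 0.34 in siPF over the band of genes that holds CDH2.

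CTNNA2, the alpha-catenin of the nervous system, differed past 2-fold in siPF, but on intensities far under the level rule on each array. Its one probe set, 205373_at, had an intensity of 25.7 in siPF, 3.51 in siB7-H3 and 3.56 in siCont. The log2 difference was 2.85 in siPF and -0.02 in siB7-H3. The 3 values stood at the 29.6th percentile of probe sets in siPF, the 6.33rd in siB7-H3 and the 5.96th in siCont. For the 39 genes of other tissues the median of the highest intensity was 42.5. In the lowest of the 10 level bands, which holds CTNNA2, 26.8% of genes were at least 2-fold higher in siPF and the SD of the differences was 1.86. With 16 added to each intensity the log2 difference of CTNNA2 in siPF was 1.09, and with low values set to the 60th percentile it was 0.05.

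**Figure D2:**
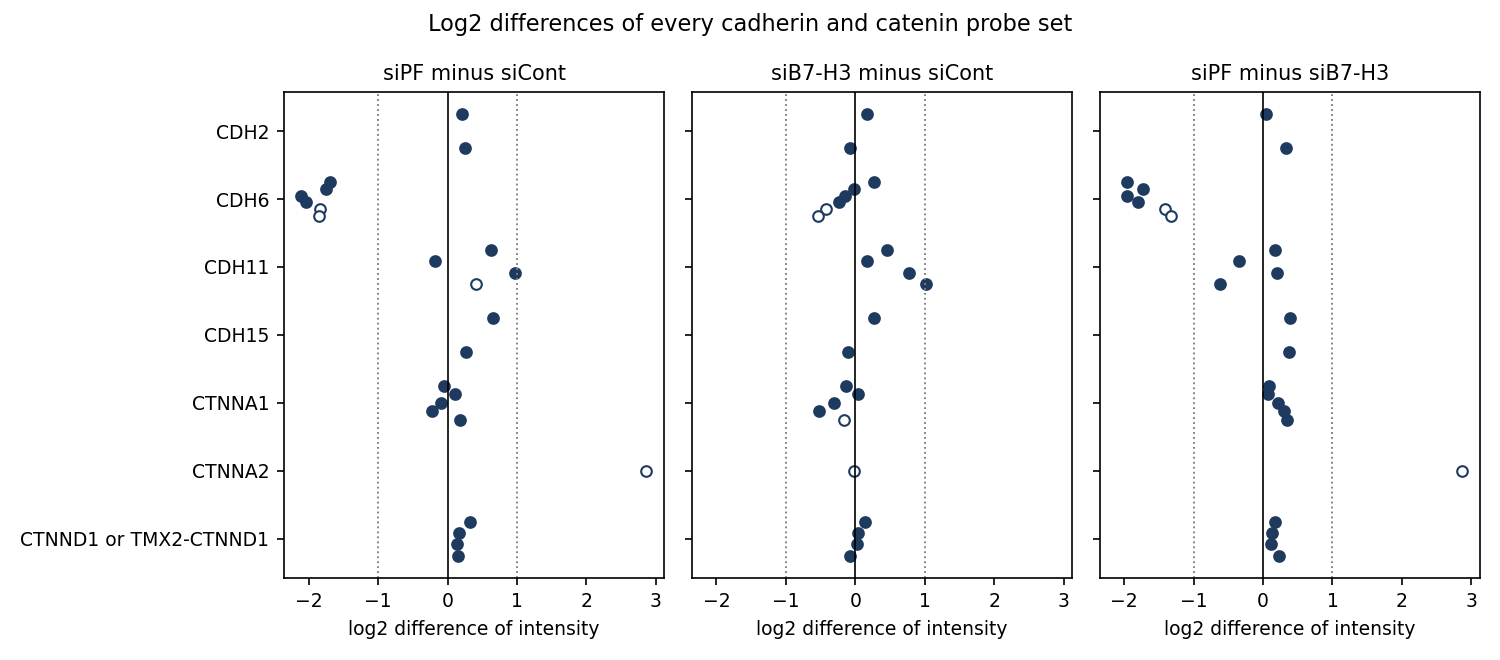
Log2 difference of intensity (horizontal axis) for each probe set of the cadherins and catenins (rows, by gene) in siPF minus siCont, siB7-H3 minus siCont and siPF minus siB7-H3, with 2-fold dotted. Filled points passed the level rule and open points did not. The 6 CDH6 points lie between -2.11 and -1.69 in siPF and around 0 in siB7-H3, and the other filled points lie within 2-fold except 1 of CDH11 in siB7-H3.

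Counted by the brightest probe set of each gene, 1 of the 5 members over the level rule was at least 2-fold lower in siPF (CDH6), against 1.12% of 10500 genes over the rule, and none was at least 2-fold higher, against 1.38%. In siB7-H3 none of the 5 was past 2-fold in either direction, against 0.83% lower and 0.792% higher among 10481 genes. In siPF against siB7-H3, CDH6 was again the 1 member at least 2-fold lower, against 0.928% of 10451 genes, and none was higher, against 0.899%. A count of 1 in 5 rests on 1 gene. CDH6 passed the rule only through the array set against siPF, with 266 in siCont and 321 in siB7-H3 beside 82.5 in siPF. The members were not all shifted one way. In siPF 3 of the 5 were above siCont and 2 below, and in siB7-H3 4 were above and 1 (CTNNA1) below. The median log2 difference of all 6 genes was 0.42 in siPF and 0.22 in siB7-H3, beside 0.017 and 0.0045 over all 19775 genes without the level rule. These 2 medians include the dim CTNNA2 and depend on the probe sets taken: over all 20 probe sets they were 0.03 in siPF and -0.05 in siB7-H3. Without that rule CTNNA2 was also past 2-fold, with siPF above siCont (as for 9.72% of all genes) and above siB7-H3 (10.0%).

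**Figure D3:**
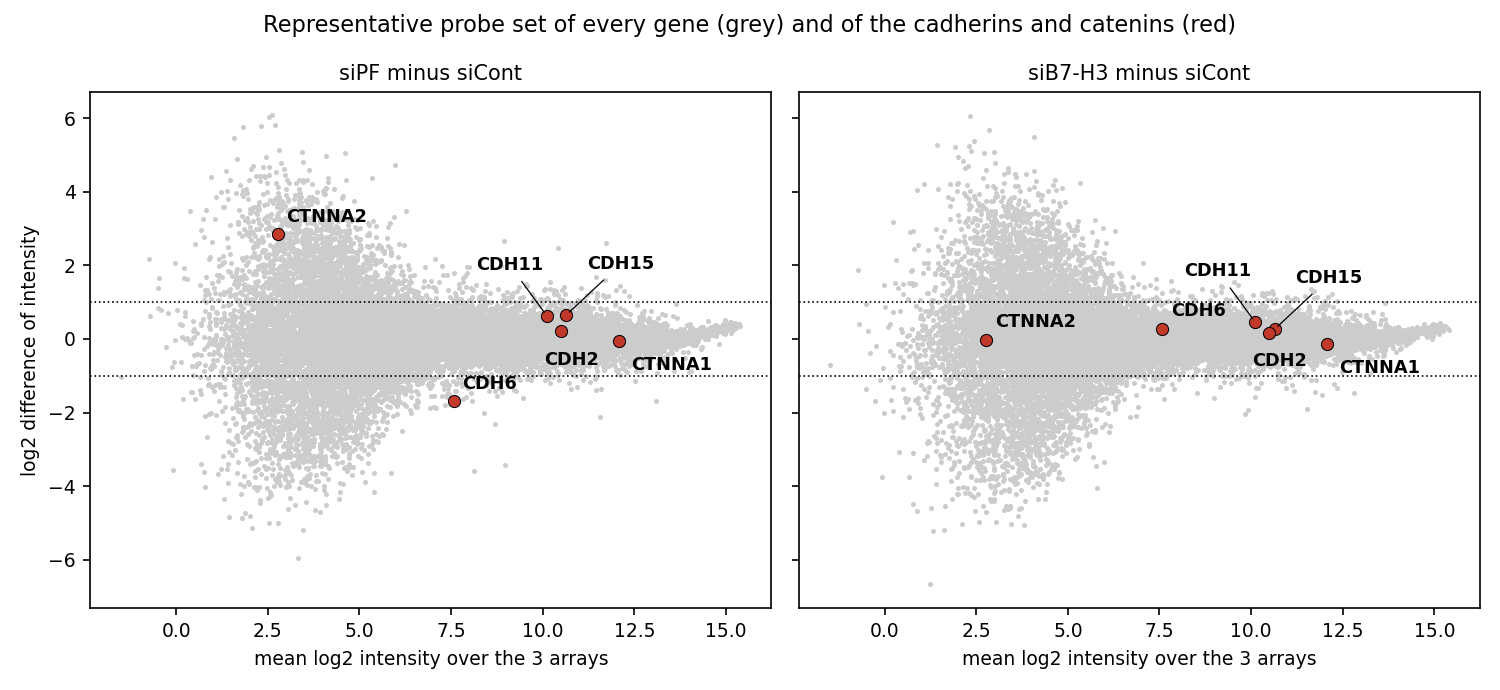
Log2 difference of intensity (vertical axis) against the mean log2 intensity over the 3 arrays (horizontal axis) for the brightest probe set of all 19775 genes in grey and of the 6 cadherins and catenins in red, for siPF and siB7-H3 against siCont, with 2-fold dotted. CDH6 at -1.69 in siPF lies below most genes of its level, whereas CTNNA2 at 2.85 lies in the wide cloud of dim genes.

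Other cadherins were mostly under the level rule. Of the 51 measured, the level rule left 9 in siPF and 10 in siB7-H3. None was past 2-fold in siPF, where 6 were above and 3 below siCont. Over all genes that passed the rule, 1.12% were at least 2-fold lower and 1.38% higher in siPF, so a count of 0 in 9 is near the background. PCDH7, a protocadherin, had 3239.5 in siPF, 4208 in siB7-H3 and 4827 in siCont. FAT1, a giant atypical cadherin, had 1728, 2202 and 1965, CLSTN1, a calsyntenin, 871, 727 and 773, and PCDH18 753, 665 and 594. In siB7-H3 1 of the 10, CDH24, was at least 2-fold lower, against 0.83% of all genes over the rule. It gave 184 in siPF, 87.1 in siB7-H3 and 225 in siCont, so it passed this comparison by its siCont value alone. Its second probe set, under the rule on all arrays, gave a log2 difference of 0.24. The epithelial cadherin CDH1 had 3.15, 30.8 and 23.8, and the endothelial cadherin CDH5 11.6, 4.99 and 1.79, all under the level rule.

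Of 33 measured catenins and junction linkers, which join cadherins to the cell interior, 25 passed the level rule in each comparison and none of these was past 2-fold. The shares over all genes, 1.12% lower and 1.38% higher in siPF and 0.83% and 0.792% in siB7-H3, are small, so a count of 0 in a list of this size is near the background, and the same holds for the next 2 lists. The other 8 were under the rule, among them JUP, the gene of plakoglobin, with 28.4 in siPF, 5.84 in siB7-H3 and 10.1 in siCont, and CTNND2, a delta-catenin of neurons, with 29.7, 47.5 and 37.0. CTNNB1, the gene of beta-catenin, had 9293 in siPF, 11118 in siB7-H3 and 9534 in siCont. VCL, the gene of the actin linker vinculin, had 7438, 7693 and 6832, ACTN1, an alpha-actinin, 11038, 11625 and 10708, and EPS8, an actin regulator, 9769, 10201 and 10168. The list's median log2 difference was -0.02 in siPF and -0.06 in siB7-H3.

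Of 28 measured genes that control cadherins, 23 passed the level rule and none was past 2-fold in either knockdown. In siPF 13 were above and 10 below siCont, and in siB7-H3 19 were above and 4 below. The share of all genes above siCont was not computed. The median log2 difference of the 23 was 0.0049 in siPF and 0.12 in siB7-H3, beside 0.018 and 0.017 over all genes that passed the rule. SNAI2, a transcription factor that represses E-cadherin, had 8865 in siPF, 10283 in siB7-H3 and 10279 in siCont. ADAM10, a protease that cuts cadherins at the surface, had 8429, 10868 and 8378. The small GTPases RHOA (20364, 20099 and 19627) and RAC1 (11202, 12745 and 11399) differed by at most 0.16 on the log2 scale from siCont.

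Of 32 measured genes of myoblast adhesion and fusion, 27 passed the level rule, 16 of them above and 11 below siCont in each knockdown, and none was past 2-fold. The muscle fusion gene MYMX, which encodes a small membrane protein needed for myoblasts to fuse, came closest, with 8518 in siPF, 6006 in siB7-H3 and 4528 in siCont. Its log2 difference was 0.91 in siPF and 0.41 in siB7-H3. ITGB1, the beta-1 integrin chain, had 19393, 15179.8 and 18066, and the tetraspanin CD9 13736, 13965 and 14173.

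**Figure D4:**
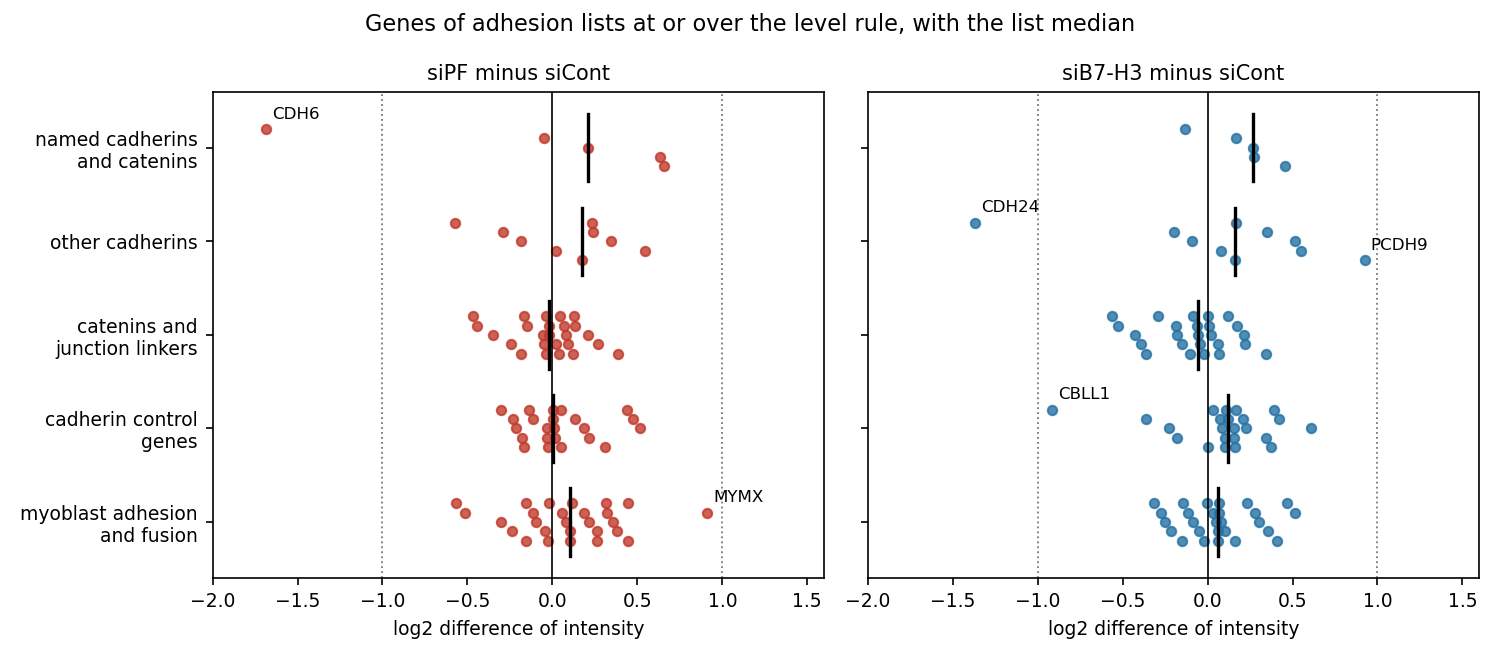
Log2 difference of intensity (horizontal axis) for genes over the level rule in 5 lists (rows), siPF minus siCont on the left and siB7-H3 minus siCont on the right, 1 point per gene, with the list median as a black bar, 2-fold dotted and genes beyond 0.9 in either direction named. CDH6 at -1.69 in siPF and CDH24 at -1.37 in siB7-H3 are the points past 2-fold.

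The genes most like CDH6 over the 3 arrays were sought among 9845 genes over the 60th percentile on each array, by the distance between the log2 differences in siPF and siB7-H3. CDH6 does not meet this condition itself, with 82.5 in siPF. Genes that fall under the 60th percentile in siPF, as CDH6 does, were therefore not searched, and the genes named are the nearest among bright genes only. The nearest was TMED2, which acts in vesicle transport, with 3896 in siPF, 13191 in siB7-H3 and 12636 in siCont, at a distance of 0.21, and its 3 probe sets lay between -2.53 and -1.70 in siPF. ZNF252P, a pseudogene, followed with 209, 614 and 559.8 at 0.30, although its 4 probe sets ranged from -2.46 to 0.52 in siPF. FOXO1 was the third, with log2 differences of -1.45 in siPF and -0.06 in siB7-H3, at 0.41. For CDH15, OLFML2B, YPEL2 and DMTF1-AS1 were nearest, at distances of 0.01 to 0.03, and the 3 probe sets of YPEL2 ranged from -1.05 to 0.64 in siPF.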

How the data were processed

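The files hold 1 Affymetrix U133 Plus 2.0 array for each of siPF, siB7-H3 and siCont. The authors' deposited values are linear-scale intensities for each probe set, which came from the Affymetrix Expression Console software (version 1.4.1, per the submitters' processing notes). How probes were summarized and to what target arrays were scaled is not given in the sources used here, and detection calls were not used. Groups were taken from the sample titles. Names came from the platform annotation, with symbols updated through RefSeq gene IDs, and 62 control probe sets were left out of percentiles and counts. Intensities were converted to log2 with no pseudocount and no floor. Where a gene had several probe sets, the one with the highest mean log2 value stood for it, and a log2 difference of at least 1 in either direction was counted. The number of arrays limits the precision. The genes named were all members, list genes past 2-fold under the level rule, up to 4 list genes of highest level, the 3 nearest genes of CDH6 and CDH15, and both siRNA targets. Cell type markers came from fixed lists. ACTC1, MYOG, MYOD1, MET, MYF5, JUP, CTNND2, CTNNA1P1, CDH1, CDH5 and the genes of the closing section were named besides, after their values were seen. Members and lists were chosen with earlier results of these data known. The code ran under Python 3.11.15 with numpy 2.4.6, pandas 2.3.3 and scipy 1.17.1, drew figures with matplotlib 3.10.9, and was first tested on simulated data.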

Additional observations from a re-analysis of the deposited data

How the results depend on the processing

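In all, 11 alternatives were tried. Of 88 recomputed counts and medians of the members, 81 kept the count or moved by less than 0.58 on the log2 scale. Part of this was fixed beforehand, since the medians and the differences per gene do not use the level rule and cannot move when only that rule changes. The tolerance of 0.58 is also larger than either median, so the moves given next count among the 81. The median in siB7-H3 turned to -0.05 with all probe sets counted, against 0.22, and that in siPF was 0.03 there, against 0.42. The exceptions were as follows. With all probe sets named with 1 gene counted, 4 were at least 2-fold lower in siPF than in siCont and 4 lower in siPF than in siB7-H3, all of CDH6, and 1 was higher in siB7-H3, of CDH11. With the level rule at the 70th percentile, and with values under the 60th percentile set to it, the count of lower members in siPF against siCont was 0. The brightest CDH6 probe set, which stood for the gene, lay at the 68.4th percentile in siCont. At 205532_s_at and 210602_s_at siCont lay at the 70.3rd and 70.01st, so the count at the 70th percentile depends on the probe set taken. At the 60th-percentile floor the siCont level of the brightest left room for a log2 difference of -0.96 at most. With no level rule 1 member, CTNNA2, was higher in siPF than in siCont and 1, the same gene, than in siB7-H3. The log2 difference of CDH6 in siPF ranged from -1.90 to -0.96 over the 10 alternatives that give a value per gene, and that of CDH15 from 0.27 to 0.66. Centring and quantile normalization moved the median of all genes by less than 0.1 on the log2 scale. No paired analysis was possible because each condition had 1 array.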

Other observations

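Among genes with at least 4 probe sets and at least 1 of them over the level rule, those with every probe set past 2-fold the same way were counted after the values of CDH6 had been seen. Of 2176 genes in siPF, CDH6 and NT5E, the gene of the surface enzyme CD73, were lower than in siCont at every probe set, and EMP2 and HIPK3 were higher. For CDH6 these ratios rest on low siPF values. Of 2182 in siB7-H3, STX17, a syntaxin of autophagosome fusion, was lower and EMP2 was higher. In siPF against siB7-H3, CDH6 was the only one of 2181 genes lower throughout, and 0 were higher throughout.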
